A study of Arabidopsis thaliana with 3 samples.

Results

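The transcripts described here came on strongly when Arabidopsis thaliana seed took up water and were lower when the seed was imbibed on trichostatin A (TSA). They were measured on Affymetrix ATH1 arrays, on which a probe set is a group of short probes read together as 1 signal for 1 transcript. Members were chosen by those array signals: they are the probe sets whose scaled signal was at least 16-fold higher in untreated imbibed than in unimbibed seed, and whose signal with TSA was at most 0.5 of that in untreated imbibed seed. Of 22746 probe sets in all, 82 met both limits, and 80 remained once the α-tubulin TUA6 and the expansin EXPA9 were left out by the same rule. The annotation paired 22 of the 80 with 1 gene, 58 with none and 0 with several, and a probe set paired with none is given here by its identifier only, so an expansin or tubulin among those 58 would not have been recognised. Both ratios chose the members and are given as descriptions. No test was possible, because each state was measured on 1 array.

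All 3 groups were seed of ecotype Columbia. The first was imbibed for 3 days on Murashige and Skoog agar with 10 µM TSA, the second was imbibed for 3 days on the same medium without TSA, and the third was unimbibed. The labels disagree on the unit of the TSA concentration, and the one attached to the treated sample's own source, 10 µM, is used. The imbibed seed was kept under 16 h light. The labels name seed as the source of the total RNA, with no tissue separated, so fewer cells of a type and less RNA per cell cannot be told apart in these signals.

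Seeds that take up water restart transcription and translation, and growth of the embryonic root through the seed coat completes germination. Cells that elongate loosen and rebuild their walls, and root epidermal cells produce root hairs, which grow at the tip and are rich in extensins and peroxidases. Extensins are rod-like hydroxyproline-rich wall glycoproteins that class III peroxidases, secreted haem enzymes, can crosslink. TSA inhibits histone deacetylases, enzymes that remove acetyl groups from histone tails and are associated with lower transcription of nearby genes.

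Scaling gave each array the same 2% trimmed mean, which sets the average transcript equal in the 3 states, extremes left out. The factors were 0.859 for the TSA array, 0.877 for the untreated imbibed array and 1.44 for the unimbibed array. Scaled signals under 10.7, the 40th percentile of all pooled signals, were raised to that floor, and a ratio against the floor is a bound, written "at least". The words higher and lower are used below for a ratio past 2-fold. The log2 ratios of 18 hybridisation control probe sets had an SD of 0.14 for TSA over untreated and of 0.17 for untreated imbibed over unimbibed seed. Probe sets of the same locus differed by a root mean square of 0.54 in the log2 TSA ratio over 49 loci, and by 1.06 in the log2 ratio of untreated imbibed over unimbibed seed and 0.88 in that of TSA over unimbibed seed over 41 loci. None of these values includes the variation between batches of seed. Signals of 3′ over 5′ probe sets, which fall as RNA is more intact, were 4.31 on the TSA array, 4.66 on the untreated array and 1.82 on the unimbibed array for actin. They were 1.497, 0.876 and 1.31 on the same arrays for GAPDH, and 2.71, 3.17 and 3.87 for ubiquitin, so the 3 genes gave different orders.

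In TSA-treated seed the members had a lowest signal of 24.7, a median of 155.1 and a highest of 1009, in untreated imbibed seed 174, 477 and 2515, and in unimbibed seed their highest was 81.0. All 80 were above the floor on the TSA array, and in unimbibed seed 46 of them were at the floor and 34 above it. An induction of at least 16-fold was found in 1.96% of the 16246 probe sets measured in that comparison. The summed signal of the members was 1.24% of all scaled signal in TSA-treated seed, 3.82% in untreated imbibed seed and 0.0761% in unimbibed seed. The sums themselves were 16152, 49249 and 1529, the last with signals raised to the floor. All scaled signal was not set equal between arrays, since the trimmed mean leaves out the brightest probe sets. The summed share with TSA thus lay between those of the other states.

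The log2 ratio of TSA over untreated seed had a median of -1.62 over the 80 members, so that the median member kept 32.5% of its untreated signal. The middle part of the distribution, from the lower to the upper quartile, ran from -1.96 to -1.27, with extremes of -4.10 and -1.01. Of the 80, 61 lay between 0.25 and 0.5 of their untreated signal, 19 were at or below 0.25, and 5 of those 19 were at least 8-fold lower. Over all measured probe sets 0.949% were at or below 0.25, and nothing is read from the difference, since the ratio chose the members. In 45 members the log2 ratio lay beyond the limit of -1 by more than 0.54, the root mean square difference between probe sets of a locus. That count is a description, since the ratio chose the members. The value of 0.54 comes from the same arrays and does not say how well a member's ratio would repeat in other seed. The 20 members with the brightest untreated signal had a median of -1.61 and the 20 dimmest of -1.65. The rule cuts both groups at -1, so nothing is read from how close these medians are.

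**Figure D1:**
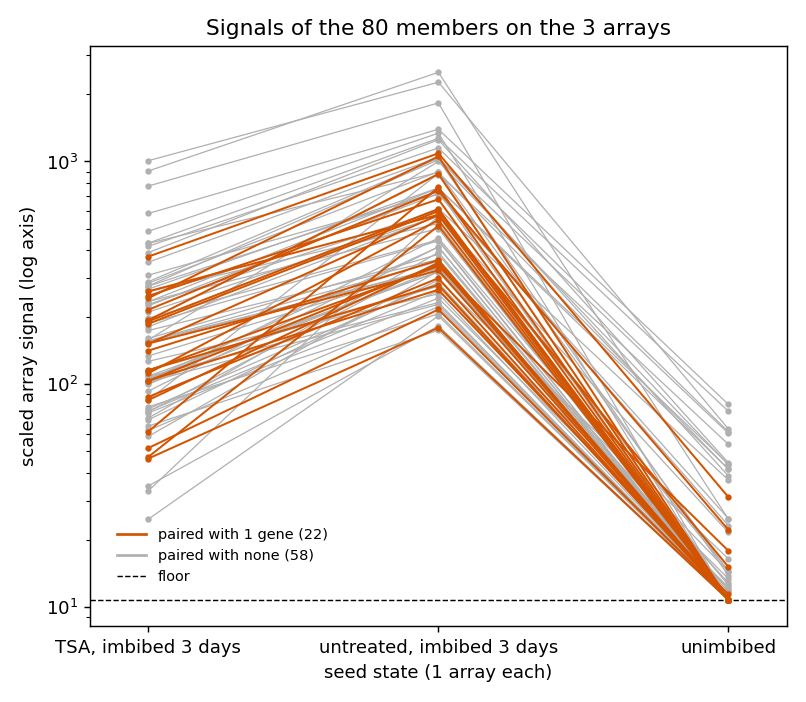
Scaled signal (log axis) of each of the 80 members in TSA-treated, untreated imbibed and unimbibed seed, 1 array each; orange lines are the 22 probe sets paired with 1 gene, grey lines the 58 paired with none, and the dashed line is the floor of 10.7. The lines peak at untreated imbibed seed by the choice of members, and with TSA they lie between 24.7 and 1009, above the unimbibed signal of the same probe set in every case.

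Compared with unimbibed seed, a ratio that follows from the other 2 and is likewise a description, the members stood higher in TSA-treated seed by a median log2 ratio of 3.28, or 9.73-fold, a median that includes bounds, since 46 of 80 were at the floor in unimbibed seed. The median log2 ratio was 4.001 with no floor, 3.87 with poly-A control scaling and 2.54 with the floor at the 60th percentile. In 20 of the 80 the TSA signal was still at least 16-fold above unimbibed seed, in 55 it was 4-fold to 16-fold above it, in 4 it was 2-fold to 4-fold above it, and in 1 it was under 2-fold. Of all probe sets measured in that comparison 2.60% were at least 16-fold higher. Bounds are included in these counts. Thus 79 of 80 were higher with TSA than in unimbibed seed, as were 23.3% of all measured probe sets, and since the ratio shares both arrays with the rule nothing is read from this.

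With the expansin and tubulin genes left out, 313 probe sets were strongly induced, of which the 80 members were 25.6%, 55 were at least 2-fold higher with TSA (17.6%) and 178 lay between (56.9%). Among all 15700 probe sets measured on either imbibed array, 9.51% were lower with TSA and 10.4% were higher. The share of 9.51% mixes in dim probe sets that could hardly be called lower: among the 1463 probe sets whose untreated signal was at least 16 times the floor, which every strongly induced probe set must reach, 28.6% were lower with TSA. The share of 25.6% is near 28.6%, so nothing is read from it about strong induction. Both ratios also contain the same untreated array.

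Against the 55 strongly induced probe sets that were higher with TSA, the members had a median induction of 30.8-fold and those 55 of 30.2-fold, with unimbibed seed at the floor in 57.5% and 63.6% of them. Their median untreated signals were 477 and 393. The median unimbibed signal was the floor value in both sets, so it cannot show whether they were alike before imbibition. The median inductions include bounds, and the rule cut both sets at 16-fold, so nothing is read from how close they are. Probe sets whose identifier ends in _x_at, which contain probes that can match other transcripts as well, were 6 of the 80 members (7.50%), 0 of the 55 and 1 of the 178, against 0.554% of all probe sets. Of the members 22 had a gene name, of the 55 there were 14 and of the 178 there were 58.

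**Figure D2:**
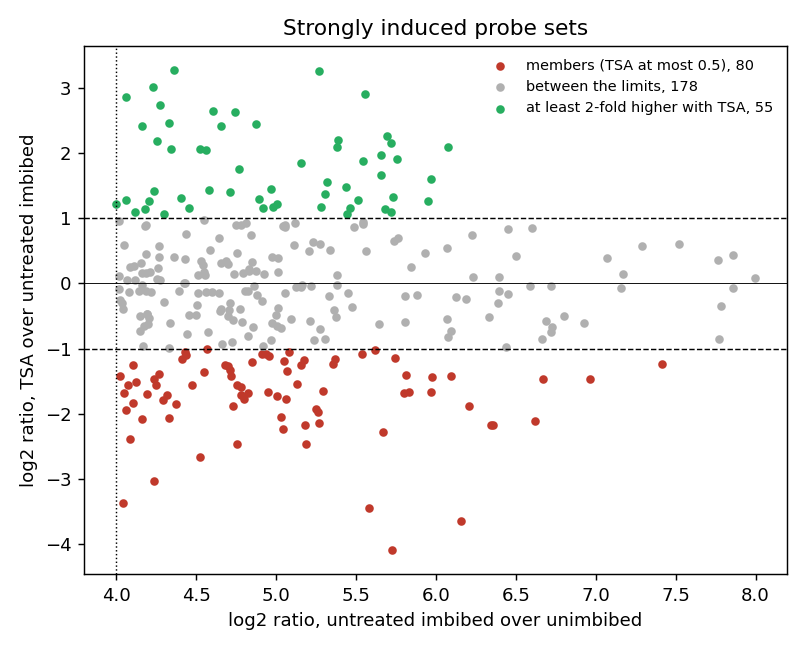
Log2 ratio of TSA over untreated imbibed seed (vertical) against log2 ratio of untreated imbibed over unimbibed seed (horizontal) for the 313 strongly induced probe sets, each point 1 probe set, with dashed lines at 2-fold and a dotted line at 16-fold. The 80 members in red lie from -1.01 down to -4.10, the 178 in grey lie between the lines and the 55 in green lie above them.

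Cell wall proteins made up a first group of named members. HRGP1, a hydroxyproline-rich extensin, had a signal of 374 in TSA-treated seed, 1088 in untreated imbibed seed and 31.0 in unimbibed seed. With TSA it kept 34.4% of its untreated signal, a log2 ratio of -1.54, after an induction of 35.1-fold. AT5G06630, which encodes a proline-rich extensin-like protein, had 194 in TSA-treated seed, 879 in untreated imbibed seed and the floor value in unimbibed seed. Its log2 TSA ratio was -2.18, and its induction was at least 81.9-fold. In both, the TSA signal lay between those of the other states.

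AT4G08410, another extensin-like gene, had a signal of 152 in TSA-treated seed, 575 in untreated imbibed seed and 15.1 in unimbibed seed, a log2 TSA ratio of -1.92 and an induction of 38.1-fold. AT1G23720, of the same family, had 141 in TSA-treated seed, 361 in untreated imbibed seed and the floor value in unimbibed seed, with a log2 TSA ratio of -1.35 and an induction of at least 33.6-fold. All 4 extensin-like members were read by _x_at probe sets, which can detect related extensins, so the 4 values may not be independent measurements of 4 transcripts. The repeats of these proteins make their genes alike in sequence.

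A list of 26 extensin, leucine-rich extensin and proline-rich protein loci was written to set these members beside their family, after the members were known. Own probe sets were found for 11 of them, and 8 of the 11 were higher after imbibition, against 22.6% of all measured probe sets. An induction of at least 16-fold was found in 4 of the 11, beside 1.96% of all measured probe sets. These 4 are the members, which were chosen for it. With TSA 5 of the 11 were lower and 0 higher, and the median log2 ratio was -0.88, but 4 of the 5 are the members, which the rule made lower. Of the other 7 loci 1 was lower and 0 higher, at a median of -0.28, beside 9.51% lower and a median of -0.02 over all 15700 measured probe sets. Among these 7, AT1G26250, AT1G26240 and AT2G43150 had untreated signals of 21.1, 19.7 and 19.4. Those signals lay within 2-fold of the floor, which kept the ratios from passing the lower limit. The 1 lower locus, AT3G28550, had 33.9 in TSA-treated seed, 85.0 in untreated imbibed seed and the floor value in unimbibed seed, a log2 TSA ratio of -1.33, and was read by a probe set with no _x_at ending. AT3G54580, also an extensin, had 108 in TSA-treated seed, 131 in untreated imbibed seed and 15.9 in unimbibed seed, with a log2 TSA ratio of -0.28. The leucine-rich extensin AT4G18670, LRX5, had a ratio of -0.88, and AT3G24480, LRX4, of -0.39, so the family was not uniformly lower.

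Class III peroxidases were the largest named family among the members, with 6 genes. AT5G64100 was the brightest, with 243 in TSA-treated seed, 1054 in untreated imbibed seed and the floor value in unimbibed seed. Its log2 TSA ratio was -2.11, and it was at least 98.2-fold induced without TSA. AT1G30870, the root hair peroxidase PRX7, had 112 in TSA-treated seed, 546 in untreated imbibed seed and the floor value in unimbibed seed, and kept 20.5% of its untreated signal with TSA, a log2 ratio of -2.29. These 2 were the peroxidases with the lowest TSA ratios.

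AT4G26010, PRX44, which is also known from root hairs, had 191 in TSA-treated seed, 611 in untreated imbibed seed and the floor value in unimbibed seed, a log2 TSA ratio of -1.68. AT5G17820 had 249 in TSA-treated seed, 676 in untreated imbibed seed and the floor value in unimbibed seed, a log2 TSA ratio of -1.44. AT3G49960 had 104 in TSA-treated seed, 345 in untreated imbibed seed and the floor value in unimbibed seed, a log2 TSA ratio of -1.74. Like the first pair, these 3 were at the floor before imbibition, so their inductions of at least 56.9-fold, 63.0-fold and 32.1-fold are bounds. AT1G34510 had 116 in TSA-treated seed, 279 in untreated imbibed seed and the floor value in unimbibed seed, and its log2 TSA ratio of -1.27 was the nearest to the limit among the 6.

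The rest of the peroxidase family varied from one gene to the next. Of the 73 class III peroxidase loci of the genome, a list written after the members were known, 55 had a probe set of their own and 45 were measured in imbibed seed. With TSA 9 of the 45 were lower and 8 higher, beside 9.51% and 10.4% of all measured probe sets, and the median log2 ratio was 0.32, but -0.08 where poly-A controls were set equal. The balance turned on the processing. At the 60th percentile floor 7 were lower and 4 higher, with no floor 11 and 13, and with poly-A scaling 13 and 9. Without the 6 members, which the rule made lower, 3 of 39 were lower and 8 higher. For dim loci, whose untreated signal lay within 2-fold of the floor, the floor kept the ratio from passing the lower limit. As bright peroxidases that are no members, chosen after their values were seen, PRXR1 had 1016 in TSA-treated and 569 in untreated seed (log2 ratio 0.84), and AT1G71695 had 305 in TSA-treated and 201 in untreated seed (log2 ratio 0.60).

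Among the 8 that were higher with TSA, AT2G37130 had 304 in TSA-treated seed, 41.2 in untreated imbibed seed and the floor value in unimbibed seed (log2 TSA ratio 2.88), and AT5G39580 had 238 in TSA-treated seed, 95.9 in untreated imbibed seed and 17.1 in unimbibed seed (log2 TSA ratio 1.31). The others of the 8 had untreated signals from the floor value to 15.6, all within 2-fold of the floor. Of the 39 peroxidases measured in untreated imbibed or unimbibed seed, 7 were induced at least 16-fold, beside 1.96% of all measured probe sets. Among these 7, the 6 members were lower with TSA. The other, AT4G30170, had 224 in TSA-treated seed, 186 in untreated imbibed seed and the floor value in unimbibed seed, with a log2 TSA ratio of 0.27. The 3 lower peroxidases that are no members were induced less than 16-fold: AT5G19890, AT4G31760 and AT4G33870, with log2 TSA ratios of -1.91, -1.77 and -1.17. Since the members were chosen for both properties, nothing is read from the count of 6 in 7.

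**Figure D3:**
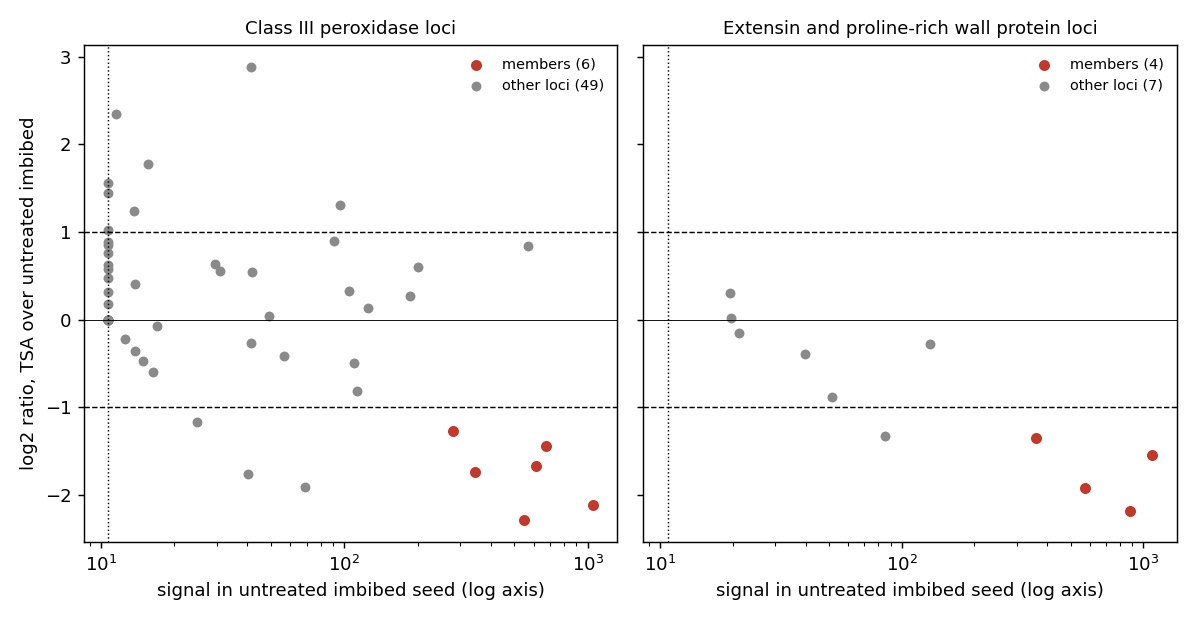
Log2 ratio of TSA over untreated imbibed seed (vertical) against untreated signal (horizontal, log axis) for the 55 class III peroxidase and 11 extensin or proline-rich probe sets paired with 1 gene; red points are members, grey points other loci, dashed lines mark 2-fold and the dotted line is the floor, at which lower signals are drawn. The 6 peroxidase members lie between -2.29 and -1.27 at untreated signals from 279 to 1054, a region that the member rule sets.

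Other named members act on the wall or on sugars. GH9C1, an endo-glucanase of the cellulase family, had 46.3 in TSA-treated seed, 179 in untreated imbibed seed and the floor value in unimbibed seed, a log2 TSA ratio of -1.95. AT1G78060, a glycoside hydrolase of the β-xylosidase type, had 104 in TSA-treated seed, 265 in untreated imbibed seed and 11.4 in unimbibed seed, a log2 TSA ratio of -1.36. PMM, phosphomannomutase, which makes the mannose phosphate used for GDP-mannose, protein glycosylation and ascorbate, had 152 in TSA-treated seed, 324 in untreated imbibed seed and the floor value in unimbibed seed, a log2 TSA ratio of -1.09. AT1G06000, a flavonol rhamnosyltransferase, had 87.6 in TSA-treated seed, 299 in untreated imbibed seed and the floor value in unimbibed seed, a log2 TSA ratio of -1.77. PMM was the member nearest to the limit among these 4, and GH9C1 the furthest past it, though GH9C1 had the lowest untreated signal of all 22 named members.

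Another pair belongs to the secretory pathway and to proteolysis. CRT1b, a calreticulin that binds calcium and helps glycoproteins fold in the endoplasmic reticulum, had 216 in TSA-treated seed, 739 in untreated imbibed seed and 22.1 in unimbibed seed, a log2 TSA ratio of -1.78 and an induction of 33.4-fold. AT3G45310, a papain-type cysteine protease, had 187 in TSA-treated seed, 598 in untreated imbibed seed and the floor value in unimbibed seed, a log2 TSA ratio of -1.68. Both kept about the same part of the untreated signal, 29.2% and 31.2%.

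AT5G01870, which encodes a lipid transfer protein, a small secreted protein that binds lipids, had 61.2 in TSA-treated seed, 766 in untreated imbibed seed and the floor value in unimbibed seed. It kept 7.99% of its untreated signal, a log2 ratio of -3.64, the lowest of all named members. AT4G33560 had 47.1 in TSA-treated seed, 515 in untreated imbibed seed and the floor value in unimbibed seed, a log2 TSA ratio of -3.45. These were the only named members at least 8-fold lower with TSA.

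The remaining 4 named members are given without a role. AT1G62480 had 261 in TSA-treated seed, 576 in untreated imbibed seed and the floor value in unimbibed seed, a log2 TSA ratio of -1.14. AT2G17850 had 84.8 in TSA-treated seed, 350.5 in untreated imbibed seed and the floor value in unimbibed seed, a log2 TSA ratio of -2.05. AT5G66985 had 115 in TSA-treated seed, 339 in untreated imbibed seed and 17.8 in unimbibed seed, a log2 TSA ratio of -1.56, and AT5G54970 had 51.6 in TSA-treated seed, 216 in untreated imbibed seed and the floor value in unimbibed seed, a log2 TSA ratio of -2.07. Over the 22 named members the median log2 TSA ratio was -1.75, and over the 58 unnamed ones it was -1.56.

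**Figure D4:**
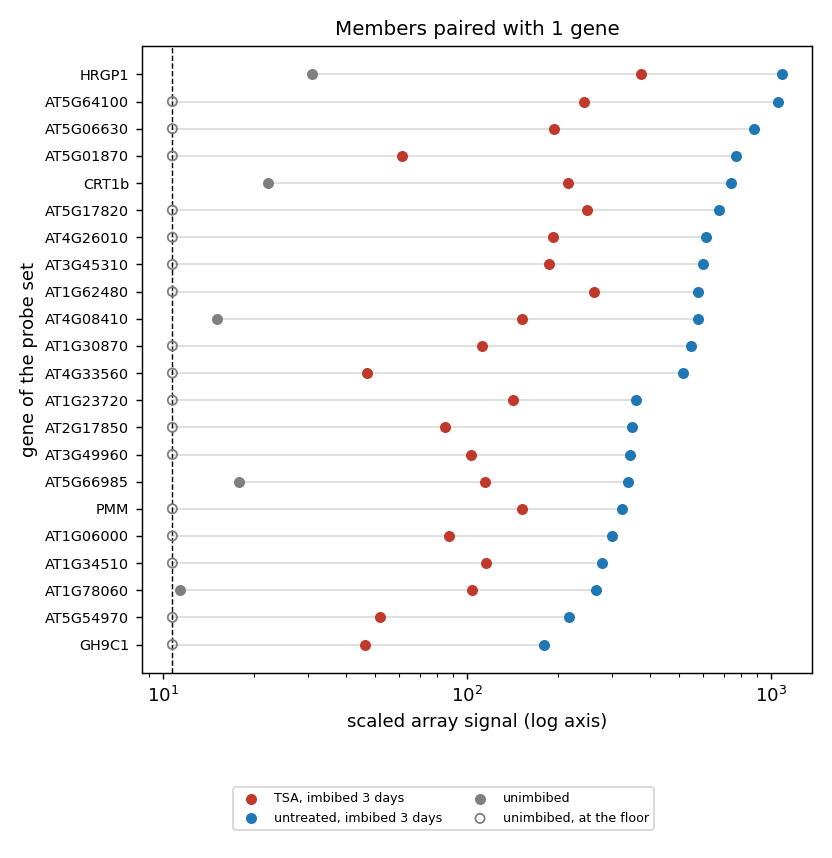
Scaled signal (horizontal, log axis) of the 22 members paired with 1 gene in TSA-treated (red), untreated imbibed (blue) and unimbibed seed (grey, open where at the floor), 1 array each, ordered by untreated signal with the brightest at the top. In each row the red point lies between the grey and the blue one, and it is nearest to the grey for GH9C1 and AT4G33560, at log2 ratios over unimbibed seed of at least 2.11 and at least 2.13, with the grey points drawn at the floor.

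Among the unnamed members, the lowest TSA ratio of all 80 was that of 260869_at, with 33.2 in TSA-treated seed, 569 in untreated imbibed seed and the floor value in unimbibed seed, a log2 ratio of -4.10. The probe set 249063_at had 84.9 in TSA-treated seed, 883 in untreated imbibed seed and 53.6 in unimbibed seed, a log2 TSA ratio of -3.38, and was the 1 member under 2-fold above unimbibed seed, at 1.58-fold. The probe set 250533_at had 24.7 in TSA-treated seed, 202 in untreated imbibed seed and the floor value in unimbibed seed, a log2 TSA ratio of -3.03. These 3, with AT5G01870 and AT4G33560, were the 5 members at least 8-fold lower with TSA.

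They were followed by 267151_at, with 158 in TSA-treated seed, 1000.2 in untreated imbibed seed and 43.4 in unimbibed seed (log2 TSA ratio -2.66), and 248636_at, with 70.4 in TSA-treated seed, 391 in untreated imbibed seed and the floor value in unimbibed seed (log2 TSA ratio -2.47). The probe set 262230_at had 58.2 in TSA-treated seed, 322 in untreated imbibed seed and 11.9 in unimbibed seed (log2 TSA ratio -2.47), and 257197_at had 34.9 in TSA-treated seed, 182 in untreated imbibed seed and the floor value in unimbibed seed (log2 TSA ratio -2.39). With AT1G30870 these complete the 10 lowest TSA ratios. The untreated signals of these 10 ran from 182 to 1000.2, so dim and bright members were both among them.

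The brightest member in untreated seed was 256825_at, with 906 in TSA-treated seed, 2515 in untreated imbibed seed and 24.7 in unimbibed seed (log2 TSA ratio -1.47). The second was 252022_at, with 1009 in TSA-treated seed, 2270.3 in untreated imbibed seed and 62.8 in unimbibed seed (log2 TSA ratio -1.17), and the third was 257173_at, with 776 in TSA-treated seed, 1833 in untreated imbibed seed and the floor value in unimbibed seed (log2 TSA ratio -1.24). With TSA these remained the 3 brightest members, and 257173_at, at least 171-fold induced, had the highest induction of the 80, as a bound.

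The next were 259077_s_at, with 584 in TSA-treated seed, 1395 in untreated imbibed seed and 81.0 in unimbibed seed (log2 TSA ratio -1.26), and 251226_at, with 486 in TSA-treated seed, 1339.9 in untreated imbibed seed and the floor value in unimbibed seed (log2 TSA ratio -1.46). The sixth was 250206_at, with 429.8 in TSA-treated seed, 1271 in untreated imbibed seed and 75.4 in unimbibed seed (log2 TSA ratio -1.56). The probe sets 254958_at and 252880_at had 389.7 and 416 in TSA-treated seed, 1252 and 1150.4 in untreated imbibed seed, and 44.3 and 61.1 in unimbibed seed, with log2 TSA ratios of -1.68 and -1.47. These 5 kept from 31.1% to 41.9% of their untreated signal. The probe set 253416_at had 353 in TSA-treated seed, 1043 in untreated imbibed seed and 38.7 in unimbibed seed (log2 TSA ratio -1.56), and 245951_at had 289 in TSA-treated seed, 1034 in untreated imbibed seed and 60.1 in unimbibed seed (log2 TSA ratio -1.84). The probe set 263552_x_at had 276 in TSA-treated seed, 1018 in untreated imbibed seed and 13.8 in unimbibed seed (log2 TSA ratio -1.88), and 263096_at had 284 in TSA-treated seed, 899.9 in untreated imbibed seed and 14.4 in unimbibed seed (log2 TSA ratio -1.66). In 12 of the 15 brightest members unimbibed seed was above the floor, so their inductions are measured on both sides rather than bounds.

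Relative to unimbibed seed, the highest TSA ratios or bounds among the members were those of 257173_at (at least 72.2-fold), 251226_at (at least 45.2-fold), 256825_at (36.7-fold) and 255516_at, which had 275 in TSA-treated seed, 734 in untreated imbibed seed and the floor value in unimbibed seed (at least 25.6-fold, log2 TSA ratio -1.42). AT1G62480 (at least 24.3-fold) came next by ratios set against the floor, an order that does not rank the bounds. The lowest measured ratios were those of 249063_at and 267151_at (3.64-fold). The lowest bounds, whose true ratios may be higher and have no order, were those of 250533_at (at least 2.30-fold), 260869_at (at least 3.09-fold) and 257197_at (at least 3.25-fold). The members thus ranged from a TSA signal far above that of unimbibed seed to 1 within 2-fold of it.

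Root hair genes were looked at beyond the members with a list of 19 loci, itself chosen with earlier results of these data known, and own probe sets existed for 4. All 4 were higher after imbibition, as were 22.6% of all measured probe sets, and lower with TSA, as were 9.51%. Of these, AT1G30870 and AT4G26010 are members, which the rule made lower. The others are the expansins EXPA7, with 30.4 in TSA-treated seed, 101 in untreated imbibed seed and the floor value in unimbibed seed (log2 TSA ratio -1.74), and EXPA18, with 70.9 in TSA-treated seed, 167 in untreated imbibed seed and the floor value in unimbibed seed (log2 TSA ratio -1.24). Of 7 root hair cell markers only the 2 expansins were paired, and their summed signal was 101.3 in TSA-treated seed, 269 in untreated imbibed seed and 21.5 in unimbibed seed, where both were at the floor. These markers are the same probe sets as the expansins of the list, so they are no second observation. The rule made the members lower, and nothing is read from these 2 markers being lower with TSA too. The 4 paired markers of photosynthetic shoot, RCA, LHCB4.1, LHCB4.2 and PSAN, moved the other way, with summed signals of 6852 in TSA-treated seed, 1157 in untreated imbibed seed and 227 in unimbibed seed. Of 9 storage embryo markers 1 was paired, PAP85, a vicilin-like storage protein, at 100.9 in TSA-treated seed, 23.4 in untreated imbibed seed and 10078 in unimbibed seed (log2 TSA ratio 2.11). The part of these markers in the members' ratios was not tested. The endosperm and dividing cell markers had 0 paired probe sets.

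The lists of endoplasmic reticulum body, xyloglucan endotransglucosylase, nuclear photosynthesis, glucosinolate and lignin loci held no member. Over all measured probe sets 1.96% were induced at least 16-fold, and with TSA 10.4% were higher and 9.51% lower. The xyloglucan endotransglucosylase and nuclear photosynthesis lists were built from gene names and synonyms, so they hold only the loci whose names matched and not whole families. Of the 7 endoplasmic reticulum body loci with a probe set, such as the β-glucosidase PYK10, 5 were induced at least 16-fold, and of the 6 measured in imbibed seed 1 was higher and 0 lower with TSA, at a median log2 ratio of -0.03, which was 0.00 with signals as deposited. With poly-A control scaling 0 of the 6 were higher and 2 lower. Of the 10 xyloglucan endotransglucosylase loci, which remodel wall xyloglucan, 4 were induced at least 16-fold, and of 8 measured 2 were higher and 1 lower with TSA, at a median of 0.29, which was -0.14 with poly-A control scaling. Of the 10 nuclear photosynthesis loci 3 were induced at least 16-fold, and 8 were higher and 0 lower with TSA, at a median of 2.26. Of 2 measured glucosinolate loci 1 was higher and 1 lower, and the 1 lignin locus, HCT, had a log2 ratio of 0.67. The aquaporin and lipid transfer lists, built from gene names, came out with 0 loci, so the lipid transfer protein AT5G01870, named only by locus, was not in the second. The 3 cell cycle loci had 0 probe sets paired with them. The ribosomal protein list, also built from names, held 1 locus, AT1G77750, with 34.3 in TSA-treated seed, 98.8 in untreated imbibed seed and 42.4 in unimbibed seed (log2 TSA ratio -1.53).

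The limits were not a gap in the data. Just inside 16-fold lay 249063_at and 247494_at, at 16.5-fold and 16.6-fold, and 260392_at, at a bound of at least 16.2-fold. Just outside, among probe sets lower with TSA, lay AT1G12000 and 264262_at, at 15.97-fold and 15.75-fold. The next, 263376_at, was at the floor in unimbibed seed, so its value of at least 15.70-fold is a bound and its true induction may pass 16-fold. Just inside 0.5 lay 262947_at, 254044_at and 249147_at, at ratios of 0.497, 0.493 and 0.480, and just outside lay 255587_at, AT5G26260 and AT5G26280, at 0.502, 0.509 and 0.514. In all, 17 of the 80 members had a log2 TSA ratio between -1.25 and the limit of -1. The members are thus one end of a continuous range rather than a separate class.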

How the data were processed

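Transcripts of Arabidopsis seed were measured on 3 Affymetrix ATH1 arrays, 1 per state, and the name of each column gave its sample, leaving 0 unmapped. The authors deposited 1 linear intensity per probe set and array, and the submitters' processing notes name MAS5; no version, scaling target or detection calls are stated there. The number of arrays limits the precision. The table held 22810 probe sets, of which 64 AFFX controls stayed out of all counts. From these intensities, the scaled signal, the floor and log2 ratios were computed in Python 3.11.15 with pandas 2.3.3 and numpy 2.4.6. The code of the member rule was run on simulated signals with bright planted members well past both limits and little noise. That run checks the code and says nothing about how reliable the members are. A probe set was measured in a comparison where either signal was above the floor. Since each group had 1 array, no test was run.

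Names came from the platform annotation, with symbols updated by identifier from the RefSeq table for TAIR10.1: 13513 probe sets were paired with 1 gene, 503 with several and 8730 with none. Roles of genes known only by locus are general knowledge. No array build was stated, so no coordinates are given, and no sequences were used here. All members paired with 1 gene were named, with signals on all 3 arrays. Unnamed members were given in full where they were among the 15 brightest in untreated seed, the 10 lowest TSA ratios, or the 5 highest or lowest ratios over unimbibed seed. The members and lists were chosen with earlier results of these data known. The peroxidase and extensin loci were written out after the members were seen. Alternatives were signals as deposited, 75th percentile, hybridisation control and poly-A control scaling, floors at the 25th and 60th percentile or none, and other limits.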

Additional observations from a re-analysis of the deposited data

How the results depend on the processing

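With 1 array per state there were no replicates to leave out. No paired analysis was possible because each group held 1 sample. The number of members was 80 and moved by over 1.5-fold to 289 where poly-A controls were set equal, 48 for a floor at the 60th percentile, 177 with no floor, 142 with induction of at least 8-fold, 38 with at least 32-fold and 19 with a TSA limit of 0.25; with signals as deposited, 75th percentile scaling, hybridisation control scaling and the 25th percentile floor it was 102, 90, 112 and 104. The floor bounds the induction of members at the floor in unimbibed seed, and the 60th percentile floor removed 32 members by that limit alone. Poly-A control scaling shifted the median log2 ratio, taken over probe sets whose 3 signals passed the floor, by -0.43 for TSA over untreated and 1.68 for untreated over unimbibed seed. The share of strongly induced probe sets that were lower with TSA was 25.6%, against 35.2% with poly-A scaling and 18.9% with no floor.

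All 80 members met the rule under 75th percentile, hybridisation control and poly-A scaling, the 25th percentile floor and no floor, 78 did with signals as deposited and 48 at the 60th percentile floor. The alternatives that kept all 80 could not have lost a member, so nothing is read from this. Those scalings moved the TSA ratio down and the induction up, and a lower or absent floor can only raise the induction. Under all 7 scalings and floors 47 members met the rule, 12 of them named. The other named members fell out at the 60th percentile floor, namely AT1G23720, AT2G17850, AT3G49960, AT5G66985, PMM, AT1G06000, AT1G34510, AT1G78060, AT5G54970 and GH9C1. The median log2 TSA ratio over the 80 ranged from -2.05 to -1.59 over these alternatives, and that of TSA over unimbibed seed from 2.54 to 4.001. The 154 TSA ratios of the 22 named members all stayed below the limit of -1, but this outcome was fixed in advance. The floors left these ratios unchanged, and each scaling shifted all members alike, upward by at most 0.03. PMM, the named member nearest to the limit, lay at -1.09. An alternative chosen after seeing the data, leaving out _x_at and _s_at probe sets, gave 69 members with a median of -1.65.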
